A study of Mus musculus with 12 samples.

Results

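Nuclear receptors were followed in mouse bone marrow-derived macrophages that lacked Hdac3 or kept an allele of it, before and after lipopolysaccharide (LPS), an outer membrane component of bacteria that TLR4 detects. The list held 46 receptor genes, chosen as receptors that may recruit the corepressor NCoR and with it Hdac3. A member was taken as the probe set carrying its symbol, the brightest where a symbol had several, which gave 44 measured members among 19945 genes tested. Nr1h2 and Nr2e3 were not analysed here. The mean signal of 19 members over all arrays was at or above the median of all genes tested (5.56 on the log2 scale). The other 25 were below it and are called dim.

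The 12 arrays formed 4 groups of 3: Hdac3 -/- macrophages given LPS, Hdac3 -/- macrophages left untreated, Hdac3 +/- macrophages given LPS, and Hdac3 +/- macrophages left untreated. LPS was given at 100 ng/ml for 4 h to cells on day 7 of culture, grown from C57BL/6 marrow in medium conditioned by L929 fibroblasts, a source of CSF1. The submitters call the +/- cells wild type, so the controls carried 1 Hdac3 allele and no group carried both. The sources used here do not say how the allele was deleted or in which cells. Signals are log2 values of whole-transcript Affymetrix arrays. Arrays are named as in -/- LPS 1, with the replicate number last. Differences are given ± 1 SE of a limma model, and a gene was called changed at a Benjamini-Hochberg adjusted p under 0.05 over all genes. Groups of 3 arrays that do not overlap were common. This held for 28.3% of all genes with LPS in -/- cells and 36.7% with LPS in +/- cells. Between the genotypes it held for 18.0% untreated and 31.8% after LPS.

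Nuclear receptors are transcription factors, most of which are switched by small lipid-soluble ligands. Many bind DNA as heterodimers with a retinoid X receptor, recruit NCoR or SMRT with Hdac3 when no ligand is bound, and exchange these for coactivators when it is. The Rev-erb receptors lack the helix that coactivators bind and act as repressors. In macrophages the family is known for control of lipid handling, of the clock and of inflammatory genes.

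Hdac3 averaged 7.11 ± 0.178 in -/- LPS arrays against 8.86 ± 0.184 in +/- LPS arrays, and 7.43 ± 0.0792 in -/- untreated arrays against 9.17 ± 0.230 in +/- untreated arrays (SD, n = 3 each). The genotype difference was -1.75 after LPS and -1.74 without it, and the highest -/- array lay below the lowest +/- array. Where the probes lie relative to the deletion is unstated in these sources, and probes outside it check nothing. All 9 measured macrophage markers lay at or above the median signal, with a summed log2 level of 15.2 to 15.4 on all 12 arrays, and so did 5 of 7 fibroblast markers. Single macrophage markers moved all the same: 2 of 9 were called with LPS in -/- cells, 5 with LPS in +/- cells and 1, Fcgr1, in each genotype comparison. The signal of Fcgr1, an Fc receptor gene, was 8.95 to 9.80 in -/- LPS against 11.6 to 12.01 in +/- LPS arrays. Of the neutrophil markers only S100a8 lay above the median, and the summed neutrophil level was 9.03 to 10.4 in -/- LPS, 7.43 to 8.74 in -/- untreated, 7.74 to 9.86 in +/- LPS and 7.62 to 7.99 in +/- untreated arrays. Single neutrophil markers went different ways. In untreated arrays S100a8 was higher in -/- (5.68 to 8.15 against 4.65 to 5.37 in +/-). Ngp (4.14 to 4.49 against 5.22 to 6.025) and Elane (4.09 to 4.15 against 4.16 to 4.38) were lower, and the other markers overlapped. After LPS S100a8 overlapped between the genotypes. Ngp (4.29 to 4.66 against 4.79 to 5.93) and Elane (4.146 to 4.154 against 4.27 to 5.07) were again lower in -/- arrays. The summed level of eosinophil and dendritic cell markers was higher in every +/- LPS array than in any other, and for erythroid or megakaryocyte markers +/- LPS and +/- untreated arrays overlapped. For eosinophil markers, all 6 dim, it was 7.18 to 7.49 in -/- LPS, 6.96 to 7.07 in -/- untreated, 7.85 to 8.68 in +/- LPS and 7.12 to 7.57 in +/- untreated arrays. For 4 erythroid or megakaryocyte markers, dim except Pf4, it was 7.98 to 8.21, 7.25 to 7.88, 8.65 to 9.36 and 7.16 to 8.84 in the same order. For 8 dendritic cell markers, all dim, it was 7.25 to 7.45, 7.21 to 7.36, 7.55 to 7.72 and 7.25 to 7.48. The eosinophil markers did not move as a set. Ccr3 had 6.69 to 7.99 in +/- LPS against 4.62 to 5.65 in -/- LPS arrays. Prg3 (5.39 to 5.52 against 4.94 to 5.34) and Il5ra (2.95 to 3.18 against 2.68 to 2.82) were also higher there. Siglecf, Epx and Prg2 overlapped between these groups. The part of these lists in the results was not tested. Replicate 1 of both +/- groups was male (Xist at 3.20 after LPS and 3.93 untreated, and at 9.67 or above on the other 10 arrays), so every -/- array read as female. The labels do not say that replicates came from separate animals, so p-values here reflect no more than the spread between arrays. In bulk RNA, fewer cells of a type and less RNA per cell cannot be told apart.

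After LPS, 11 of 44 receptors differed between -/- and +/- macrophages. The 7 receptors Nr1d1, Ppard, Rora, Nr4a1, Rxra, Thra and Rara were higher in -/- cells, and the 4 receptors Nr3c1, Nr1d2, Nr4a3 and Rorb were lower. That is 25% of the members, against 15.7% of all genes called in this comparison (9.69% higher and 5.99% lower). Among members at or above the median it was 9 of 19 (47.4%), against 26.9% of all genes at or above the median. Among dim members it was 2 of 25 (8%), Nr4a3 and Rorb, against 4.49% of dim genes. In untreated cells 4 receptors differed: Nr1d1, Rara and Rxra were higher in -/- cells and Pparg was lower. This was 9.09% of the members against 2.66% of all genes (1.22% higher and 1.44% lower), and 4 of 19 (21.1%) against 4.70% at or above the median. The median genotype difference of the members was -0.06 after LPS and 0.00 untreated, against -0.04 and 0.01 for all genes. The median after LPS joins unlike parts. It was 0.40 for the 19 members at or above the median signal (13 positive and 6 negative). For the 25 dim members it was -0.11 (3 positive and 22 negative). Untreated, these medians were 0.08 and -0.01. No median of all genes was taken by signal, so this split is not shown to be particular to the receptors. After LPS 17.7% of all genes at or above the median signal were called higher in -/- cells and 9.19% lower. Of all dim genes 1.70% were called higher and 2.79% lower. The count after LPS was 6 without +/- LPS 3, -/- LPS 1 or -/- LPS 3. The untreated count was 2 without +/- untreated 1 or any 1 of the -/- untreated arrays, and 1 without both male arrays.

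LPS changed 5 receptors in -/- cells: Nr1d1 rose, and Rxra, Nr1d2, Nr2c2 and Pparg fell. This was 11.4% of the members, near the 8.87% of all genes called (3.69% higher and 5.18% lower), and 5 of 19 (26.3%) against 16.4% at or above the median. In +/- cells LPS changed 9: Nr3c1, Nr4a3 and Rorb rose, and Nr2c2, Pparg, Rxra, Rxrb, Rora and Nr2f6 fell. That share, 20.5%, was below the 25.1% of all genes called there (9.59% higher and 15.5% lower). Among members at or above the median it was 7 of 19 (36.8%) against 40.0%, and among dim members 2 of 25 (8%) against 10.1%. The median LPS difference of the members was 0.03 in -/- and 0.12 in +/- cells, against 0.02 and 0.08 for all genes. In +/- cells it was -0.35 for the 19 members at or above the median signal (5 positive and 14 negative). For the 25 dim members there it was 0.21 (22 positive and 3 negative). In -/- cells these medians were -0.20 (7 positive and 12 negative) and 0.05 (19 positive and 6 negative). Here too no median of all genes was taken by signal. With LPS in +/- cells 11.7% of all genes at or above the median were called higher and 28.3% lower. Of all dim genes there, 7.48% were called higher and 2.67% lower. In -/- cells these shares were 6.61% and 9.82% at or above the median, and 0.772% and 0.542% among dim genes. The comparisons share arrays, so their counts do not add up as separate evidence. The count in -/- cells was 2 without -/- untreated 1, 3 without -/- untreated 3, -/- LPS 2 or -/- LPS 3, and 1 without -/- LPS 1. Over all genes the counts in these fits were 1143, 1228, 1183, 1390 and 1129, against 1769 in the fit of all 12 arrays. The count in +/- cells was 14 without +/- LPS 1, a fit that called 5983 of all 19945 genes, against 4997 with all 12 arrays. In all, 15 members were called in at least 1 comparison and 29 in none. No such count was taken over all genes, so these 15 are not shown to be more than usual. The comparison of LPS in +/- cells alone called 25.1% of all genes and 40.0% of those at or above the median.

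**Figure D1:**
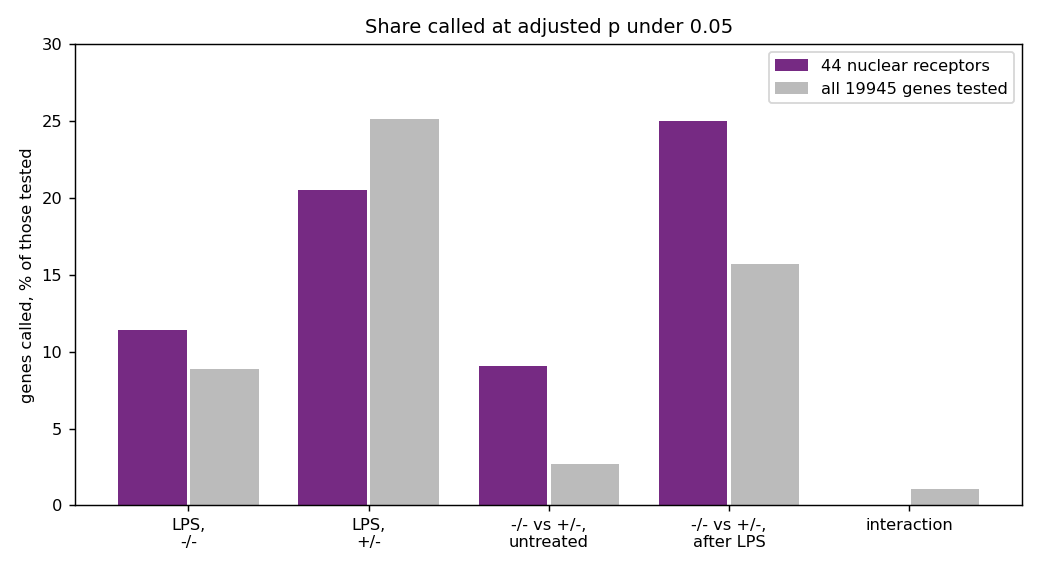
Share of genes called at an adjusted p under 0.05 (vertical axis, percent) in each of the 5 comparisons, for the 44 nuclear receptors (purple) and for all 19945 genes tested (grey). The receptor bar stands above the grey one in both genotype comparisons (9.09% against 2.66% untreated, 25% against 15.7% after LPS) and below it for LPS in +/- cells (20.5% against 25.1%).

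**Figure D2:**
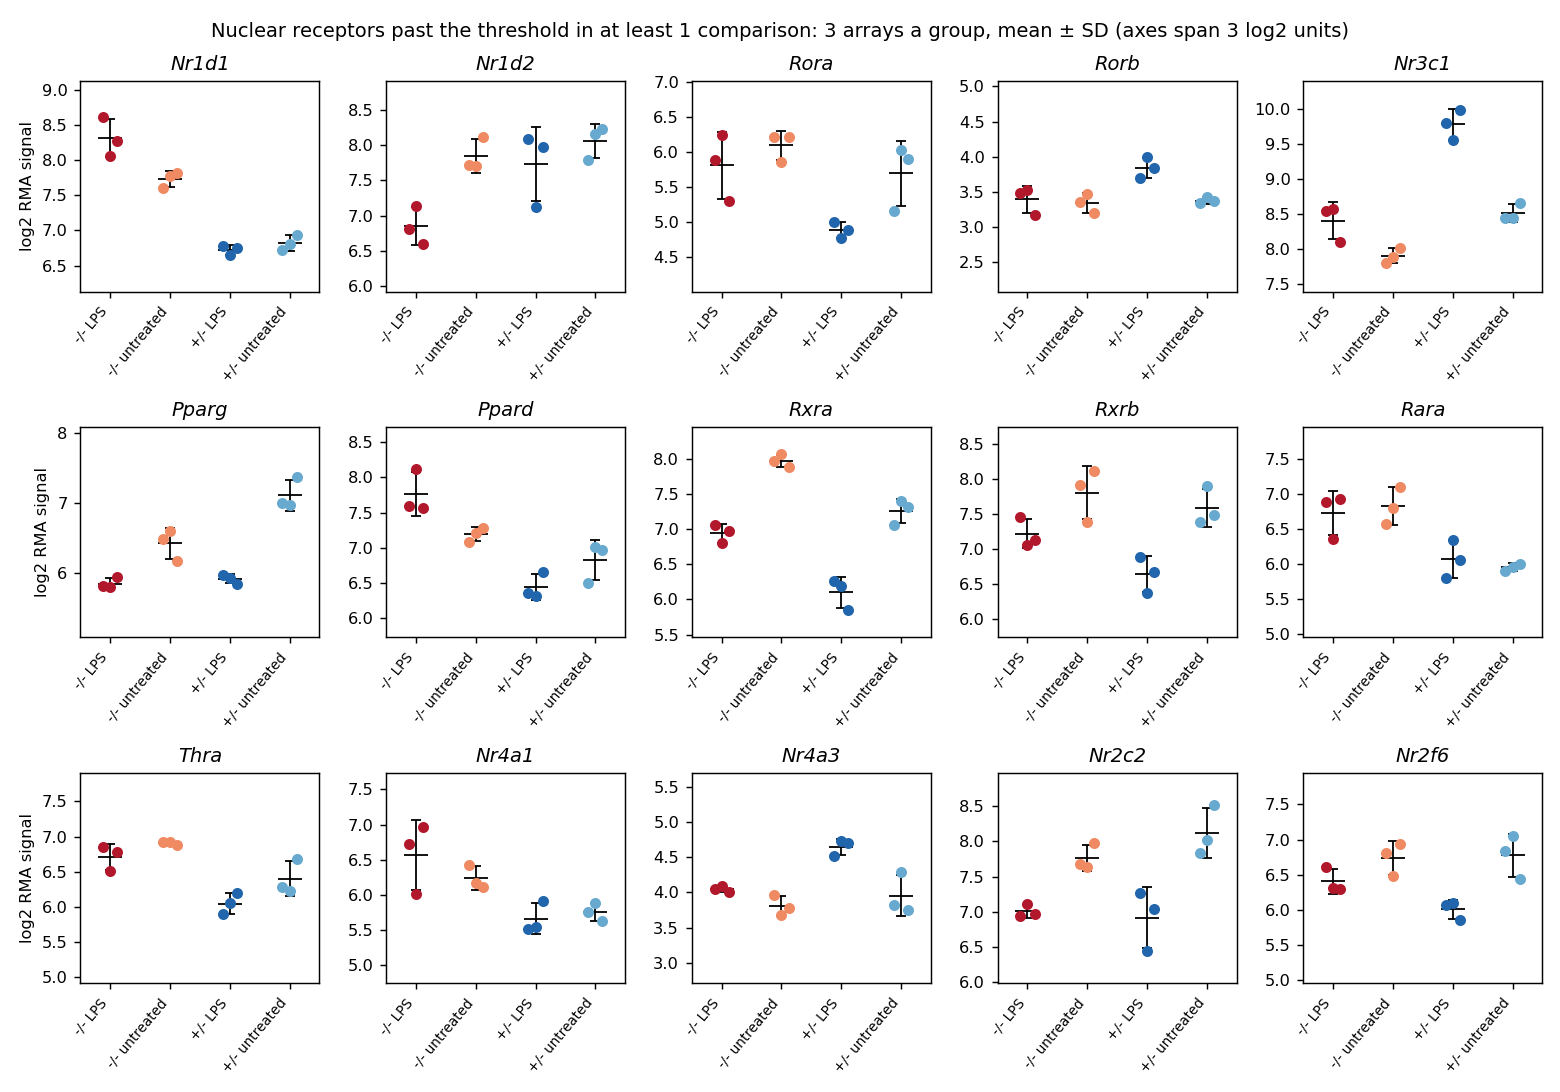
Log2 signal of each of the 15 members called in at least 1 comparison, with 1 point per array and the mean ± SD of the group, for -/- LPS, -/- untreated, +/- LPS and +/- untreated arrays. Each vertical axis spans 3 log2 units. The -/- arrays of Nr1d1 stand above all +/- arrays, and the +/- LPS arrays of Nr3c1 above all others.

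The repressors Nr1d1 (Rev-erb alpha) and Nr1d2 (Rev-erb beta), which bind the same DNA elements as the activating Ror receptors, changed in opposite directions: after LPS, Nr1d1 was higher and Nr1d2 lower in -/- cells. The 250 bases before the RefSeq start of each are shown because the paralogues differed in their response. They are from assembly GRCm38.p6, on the minus strand, at chr11:98775378-98775627 for Nr1d1 and chr14:18239107-18239356 for Nr1d2. Capitals mark the nuclear receptor half-site AGGTCA, searched on both strands.

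Nr1d1: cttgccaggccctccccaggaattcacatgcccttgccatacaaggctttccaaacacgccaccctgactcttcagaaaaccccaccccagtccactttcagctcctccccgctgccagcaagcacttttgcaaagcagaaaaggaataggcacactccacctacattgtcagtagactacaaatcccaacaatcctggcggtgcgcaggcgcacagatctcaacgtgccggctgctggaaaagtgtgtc

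Nr1d2: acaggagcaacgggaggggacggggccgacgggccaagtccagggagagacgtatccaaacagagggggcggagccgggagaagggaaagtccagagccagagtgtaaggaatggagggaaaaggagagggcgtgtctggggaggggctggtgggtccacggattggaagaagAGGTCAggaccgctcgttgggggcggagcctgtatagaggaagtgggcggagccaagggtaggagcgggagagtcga

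The Nr1d1 window holds none of the motifs searched and the Nr1d2 window holds 1 half-site. Of the members 40 matched the promoter table. They had 61 windows, of which 11 (18%) hold AGGTCA, against 14% of all 32851 windows. The E-box CACGTG, searched likewise, is in 5 of the 61 windows (8.20%), against 6.02% of all. These are descriptions of letters and show no binding.

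Nr1d1 had log2 signals of 8.61, 8.06 and 8.28 in -/- LPS arrays, against 6.78, 6.64 and 6.75 in +/- LPS arrays. Its signals were 7.61, 7.78 and 7.81 in -/- untreated arrays, against 6.72, 6.81 and 6.94 in +/- untreated arrays. Every -/- array was above every +/- array. The genotype difference was 1.59 ± 0.146 after LPS (3.02-fold, adjusted p = 8.9e-06) and 0.91 ± 0.146 untreated (1.88-fold, adjusted p = 0.00323). LPS raised Nr1d1 in -/- cells by 0.58 ± 0.146 (adjusted p = 0.0222), and the difference in +/- cells was -0.10 (adjusted p = 0.644). Without -/- untreated 1, -/- LPS 1 or -/- LPS 3, the rise in -/- cells no longer passed (adjusted p = 0.107, 0.116 and 0.0529). The difference of both LPS responses was 0.68 ± 0.207 and did not pass (adjusted p = 0.162). Thra, the thyroid hormone receptor gene, overlaps Nr1d1 in the RefSeq order of genes, and whether the probes of one read transcripts of the other was not tested.

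Nr1d2 had 6.82, 7.13 and 6.60 in -/- LPS arrays, against 7.72, 7.70 and 8.12 in -/- untreated arrays. All 3 LPS arrays were below all 3 untreated ones, with a difference of -0.999 ± 0.238 (adjusted p = 0.0170). In +/- LPS arrays it had 8.09, 7.13 and 7.98, against 7.79, 8.17 and 8.23 in +/- untreated arrays, which overlap (-0.33, adjusted p = 0.321). After LPS it was lower in -/- than in +/- cells (-0.88 ± 0.238, adjusted p = 0.0228), although +/- LPS 2 met the highest -/- array. That genotype call was lost without +/- LPS 1 (adjusted p = 0.0745), +/- LPS 3 (0.102), -/- LPS 1 (0.0716) or -/- LPS 3 (0.111), and without both male arrays (0.0705). The LPS call in -/- cells was lost without -/- untreated 3 (0.0796), -/- LPS 1 (0.0641) or -/- LPS 3 (0.0755).

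Rora, which activates at Rev-erb elements, had 5.88, 6.24 and 5.30 in -/- LPS arrays, against 4.99, 4.77 and 4.89 in +/- LPS arrays. The groups did not overlap, and the difference was 0.92 ± 0.245 (adjusted p = 0.0210). In +/- untreated arrays it had 5.16, 6.02 and 5.90, so that LPS lowered it there (-0.81 ± 0.245, adjusted p = 0.0274). In -/- untreated arrays it had 6.21, 5.86 and 6.21, and the LPS difference was -0.29 (adjusted p = 0.618). The genotype call was lost without +/- LPS 2 (0.0648), +/- LPS 3 (0.0652), -/- LPS 1 (0.0724) or -/- LPS 2 (0.0814). The LPS call was lost without +/- untreated 2 (0.0884), +/- untreated 3 (0.102), +/- LPS 2 (0.0852) or +/- LPS 3 (0.0698), and with array weights (0.0715).

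Rorb, best known from retina and brain, was dim: it had 3.49, 3.52 and 3.17 in -/- LPS arrays against 3.69, 3.99 and 3.84 in +/- LPS arrays. Its untreated signals were 3.36, 3.46 and 3.19 in -/- arrays and 3.33, 3.43 and 3.36 in +/- arrays, so the +/- LPS arrays stood apart. LPS raised it by 0.46 ± 0.138 in +/- cells (adjusted p = 0.0249), and -/- was lower after LPS (-0.45 ± 0.138, adjusted p = 0.0426). Both calls were lost when the arrays were quantile normalized again (adjusted p = 0.0849 and 0.0777), by which the LPS difference came to 0.31, or by cyclic loess, by which it came to 0.29 (adjusted p = 0.0978 and 0.0812). Both were also lost in fits of only their own arrays (0.0650 and 0.0936). Without 1 array the LPS call was lost for +/- untreated 1 (0.0704), +/- untreated 3 (0.0651), +/- LPS 2 (0.0912) and +/- LPS 3 (0.0619). The genotype call was lost without +/- untreated 1 (0.0533), +/- LPS 2 (0.132), +/- LPS 3 (0.105), -/- untreated 1 (0.0627), -/- LPS 1 (0.0717) or -/- LPS 3 (0.199). The median signal of all dim genes moved with it: 4.02 to 4.16 in -/- LPS, 3.98 to 4.07 in -/- untreated, 4.11 to 4.28 in +/- LPS and 3.96 to 4.12 in +/- untreated arrays. Of dim genes 7.48% were called higher with LPS in +/- cells and 2.79% lower in -/- than in +/- cells after LPS, and the part of this shift in the calls of Rorb and of Nr4a3 was not tested.

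Nr3c1, the glucocorticoid receptor, which binds cortisol and corticosterone, had the largest LPS rise among the members in +/- cells. It had 9.81, 9.55 and 9.99 in +/- LPS arrays, against 8.44, 8.44 and 8.66 in +/- untreated arrays. The difference was 1.26 ± 0.159 (2.40-fold, adjusted p = 6.7e-05). In -/- LPS arrays it had 8.55, 8.57 and 8.10, against 7.81, 7.89 and 8.02 in -/- untreated arrays, and the difference of 0.50 ± 0.159 did not pass (adjusted p = 0.0695). It passed with array weights (0.00269), with quantile normalization (0.0488), with dim genes left out (0.0486) and without -/- LPS 3 (0.0261). Every -/- LPS array lay below every +/- LPS array, with a difference of -1.37 ± 0.159 (2.59-fold lower, adjusted p = 6.82e-05). The untreated -/- arrays also lay below the untreated +/- arrays (-0.61 ± 0.159, adjusted p = 0.0627), and this did not pass. It passed with array weights (0.0167), with dim genes left out (0.0496), and without +/- LPS 2 (0.0470) or -/- LPS 3 (0.0426). The difference of both LPS responses, -0.76 ± 0.225, did not pass either (adjusted p = 0.145). Nr3c1 and Hdac3 lie on the same chromosome in the RefSeq table, with 13 tested genes between them. Of these 2 were called after LPS, 1 of them lower in -/- cells. The mineralocorticoid receptor Nr3c2 was dim and not called.

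Of the fatty acid receptors, Pparg fell with LPS and was lower in untreated -/- cells, and Ppard was higher in -/- cells after LPS. Pparg, the receptor known for lipid uptake and alternative activation in macrophages, had 5.81, 5.80 and 5.94 in -/- LPS arrays against 6.49, 6.60 and 6.18 in -/- untreated arrays. In +/- LPS arrays it had 5.98, 5.92 and 5.85, against 6.99, 6.96 and 7.36 in +/- untreated arrays. LPS arrays were below untreated ones in both genotypes, with differences of -0.57 ± 0.147 in -/- (adjusted p = 0.0251) and -1.19 ± 0.147 in +/- cells (adjusted p = 5.69e-05). Untreated -/- arrays were below untreated +/- arrays (-0.68 ± 0.147, adjusted p = 0.0218), and after LPS the genotypes overlapped (-0.07, adjusted p = 0.805). The difference of both responses was 0.62 ± 0.208 (adjusted p = 0.216). The call in -/- cells was lost without -/- untreated 1 (0.102), -/- untreated 2 (0.102), -/- LPS 1 (0.0938) or -/- LPS 2 (0.0870). The untreated genotype call was lost in a fit of only its own arrays (0.0989), without +/- untreated 3 (0.0910), -/- untreated 1 (0.0730) or -/- untreated 3 (0.105), and without both male arrays (0.0503).

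Ppard, the ubiquitous member of the trio, had 7.60, 8.12 and 7.56 in -/- LPS arrays against 6.35, 6.32 and 6.65 in +/- LPS arrays. The groups did not overlap, and -/- was higher by 1.32 ± 0.181 (2.50-fold, adjusted p = 0.000259). Untreated it had 7.09, 7.21 and 7.28 in -/- arrays against 6.50, 7.01 and 6.97 in +/- arrays (0.37 ± 0.181, adjusted p = 0.428). The LPS difference was 0.57 ± 0.181 in -/- (adjusted p = 0.0710) and -0.38 ± 0.181 in +/- cells (adjusted p = 0.138). Neither passed, but the difference in -/- cells did with the replicate number within genotype as a block (0.0455), with array weights (0.0120) and without +/- untreated 1 (0.0491). The difference of both responses, 0.95 ± 0.256, had the lowest adjusted p of any member in that test (0.104). Ppara, known from liver fatty acid oxidation, was dim and not called. The oxysterol receptor Nr1h3 (LXR alpha) lay above the median and was not called: its genotype difference was -0.00 after LPS (95% interval -0.43 to 0.43) and -0.25 untreated (-0.68 to 0.17).

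The retinoid X receptors are the partners of many other members. Rxra had 7.06, 6.80 and 6.97 in -/- LPS arrays, against 7.97, 8.06 and 7.88 in -/- untreated arrays. In +/- LPS arrays it had 6.26, 6.20 and 5.85, against 7.06, 7.40 and 7.32 in +/- untreated arrays. It was lower with LPS in both genotypes and higher in -/- than in +/- arrays under both treatments, with no overlap in any of the 4 comparisons. The LPS difference was -1.03 ± 0.146 in -/- (adjusted p = 0.000442) and -1.15 ± 0.146 in +/- cells (adjusted p = 7.1e-05). The genotype difference was 0.84 ± 0.146 after LPS (adjusted p = 0.00161) and 0.71 ± 0.146 untreated (adjusted p = 0.0173). The untreated call was lost without +/- untreated 1 (0.0785), -/- untreated 1 (0.0766) or -/- untreated 2 (0.0596), and without both male arrays (0.0707).

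Rxrb had 7.45, 7.07 and 7.14 in -/- LPS arrays against 7.91, 7.38 and 8.11 in -/- untreated arrays, which overlap (-0.58 ± 0.207, adjusted p = 0.109). It had 6.88, 6.37 and 6.67 in +/- LPS arrays against 7.39, 7.90 and 7.49 in +/- untreated arrays. These did not overlap, and LPS lowered it in +/- cells (-0.95 ± 0.207, adjusted p = 0.00413). The genotype difference after LPS, 0.58 ± 0.207, did not pass (adjusted p = 0.0777). With array weights or without -/- untreated 2, both this difference (0.0222 and 0.0457) and the LPS difference in -/- cells (0.0203 and 0.0272) passed. Rxrg, the isoform of muscle and nerve, was dim and not called.

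Rara, the retinoic acid receptor of myeloid cells, was higher in -/- than in +/- arrays under both treatments. It had 6.89, 6.36 and 6.92 in -/- LPS arrays against 5.80, 6.34 and 6.05 in +/- LPS arrays. Untreated it had 6.57, 6.80 and 7.10 in -/- arrays against 5.90, 5.96 and 6.01 in +/- arrays. The groups did not overlap, although -/- LPS 2 and +/- LPS 2 nearly met. The difference was 0.66 ± 0.187 after LPS (adjusted p = 0.0295) and 0.87 ± 0.187 untreated (adjusted p = 0.0225). After LPS the call was lost with quantile normalization (0.0672), cyclic loess (0.0670) and a fit of only its own arrays (0.0523). It was also lost without +/- LPS 1 (0.0892), +/- LPS 3 (0.0863), -/- LPS 1 (0.116), -/- LPS 3 (0.135) or both male arrays (0.103). Untreated, it was lost without +/- untreated 1 (0.0773), 2 (0.0509) or 3 (0.0606), -/- untreated 2 (0.0538) or 3 (0.105), or both male arrays (0.0676). Rarg, above the median, was 0.52 ± 0.189 higher in -/- arrays after LPS without passing (adjusted p = 0.0801). It passed with array weights (0.0357), in a fit of only its own arrays (0.0290), and without +/- untreated 2 (0.0497) or -/- untreated 2 (0.0420). Rarb was dim.

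Thra, the thyroid hormone receptor alpha, had 6.86, 6.51 and 6.78 in -/- LPS arrays against 5.89, 6.05 and 6.19 in +/- LPS arrays. Untreated it had 6.93, 6.93 and 6.88 in -/- arrays against 6.28, 6.23 and 6.69 in +/- arrays. All -/- arrays were above all +/- arrays within each treatment. The difference was 0.67 ± 0.151 after LPS (adjusted p = 0.00847), and that of 0.51 ± 0.151 untreated did not pass (adjusted p = 0.103), except with array weights (0.0259) and without +/- untreated 3 (0.0421). Thrb and the vitamin D receptor Vdr were dim and not called.

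The Nr4a receptors are immediate-early orphan receptors that are thought to act without a ligand and that many stimuli induce through cAMP-response elements. The 250 bases before the RefSeq start are shown for both called members because each holds 4 copies of the cAMP-response half-site TGACG, counted on both strands and marked in capitals (CGTCA on the other strand). They lie on the plus strand of GRCm38.p6 at chr15:101266596-101266845 for Nr4a1 and chr4:48045055-48045304 for Nr4a3.

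Nr4a1: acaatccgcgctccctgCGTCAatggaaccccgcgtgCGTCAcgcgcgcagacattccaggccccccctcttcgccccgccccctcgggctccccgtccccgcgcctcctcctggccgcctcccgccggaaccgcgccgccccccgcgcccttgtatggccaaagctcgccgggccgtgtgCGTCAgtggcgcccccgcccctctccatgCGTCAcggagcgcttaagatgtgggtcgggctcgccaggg

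Nr4a3: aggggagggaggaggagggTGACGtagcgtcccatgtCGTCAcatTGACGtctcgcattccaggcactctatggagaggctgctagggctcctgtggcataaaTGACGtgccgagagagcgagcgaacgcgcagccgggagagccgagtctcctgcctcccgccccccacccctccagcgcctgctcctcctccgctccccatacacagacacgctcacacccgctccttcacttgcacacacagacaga

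The half-site is in 13 of the 61 windows of members (21.3%), Nr4a2 among them, and in 17.8% of all windows. Both windows hold 4 copies, and the genotype difference after LPS was positive for Nr4a1 and negative for Nr4a3. Whether the half-site bears on either difference was not tested.

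Nr4a1 (Nur77) had 6.72, 6.02 and 6.96 in -/- LPS arrays against 5.52, 5.54 and 5.91 in +/- LPS arrays. Untreated it had 6.43, 6.17 and 6.11 in -/- arrays against 5.76, 5.88 and 5.62 in +/- arrays. The genotypes did not overlap under either treatment. The difference was 0.91 ± 0.210 after LPS (adjusted p = 0.00973), and that of 0.48 ± 0.210 untreated did not pass (adjusted p = 0.343). The call after LPS was lost without -/- LPS 3 (adjusted p = 0.0571). No LPS difference of Nr4a1 passed at 4 h (0.33 in -/-, adjusted p = 0.447, and -0.10 in +/- cells, adjusted p = 0.749).

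Nr4a3 (Nor1), a dim member, had 4.04, 4.10 and 4.00 in -/- LPS arrays against 4.52, 4.74 and 4.70 in +/- LPS arrays. Untreated it had 3.96, 3.68 and 3.78 in -/- arrays against 3.82, 4.29 and 3.75 in +/- arrays, so the +/- LPS arrays stood above the rest. LPS raised it by 0.70 ± 0.151 in +/- cells (adjusted p = 0.00398), and the 0.24 ± 0.151 in -/- cells did not pass (adjusted p = 0.432). After LPS it was lower in -/- arrays (-0.61 ± 0.151, adjusted p = 0.0151), a call lost without +/- LPS 3 (0.0575), -/- LPS 1 (0.0508) or -/- LPS 3 (0.0628). The difference of both responses was -0.46 ± 0.214 (adjusted p = 0.441). Nr4a2 (Nurr1) was dim and not called, with LPS differences of 0.25 in -/- (adjusted p = 0.364) and 0.33 in +/- cells (adjusted p = 0.0984). The difference in +/- cells passed without +/- LPS 1 (0.0138) and without both male arrays (0.0422).

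Among the orphan receptors of the Nr2 group, Nr2c2 (TR4) fell with LPS in both genotypes and Nr2f6 (EAR2) in +/- cells. Nr2c2 had 6.93, 7.10 and 6.97 in -/- LPS arrays against 7.68, 7.63 and 7.97 in -/- untreated arrays, with no overlap. It had 7.27, 6.43 and 7.04 in +/- LPS arrays against 7.83, 8.01 and 8.52 in +/- untreated arrays, again with no overlap. The differences were -0.76 ± 0.215 (adjusted p = 0.0417) and -1.21 ± 0.215 (adjusted p = 0.00100), and the genotype differences did not pass (0.09 after LPS, -0.36 untreated). The call in -/- cells was lost with an eBayes trend (0.0503), quantile normalization (0.0628) or cyclic loess (0.0741). It was lost as well without +/- LPS 3 (0.0541), -/- untreated 1 (0.0942), 2 (0.0606) or 3 (0.158), or -/- LPS 1 (0.138), 2 (0.0841) or 3 (0.108). Nr2f6 had 6.07, 6.10 and 5.86 in +/- LPS arrays against 6.83, 7.05 and 6.44 in +/- untreated arrays (-0.77 ± 0.175, adjusted p = 0.00564). In -/- arrays it had 6.61, 6.31 and 6.30 with LPS against 6.80, 6.48 and 6.93 untreated, which overlap (-0.33, adjusted p = 0.336). Its genotype difference after LPS, 0.40 ± 0.175 (adjusted p = 0.151), passed with array weights (0.0305).

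**Figure D3:**
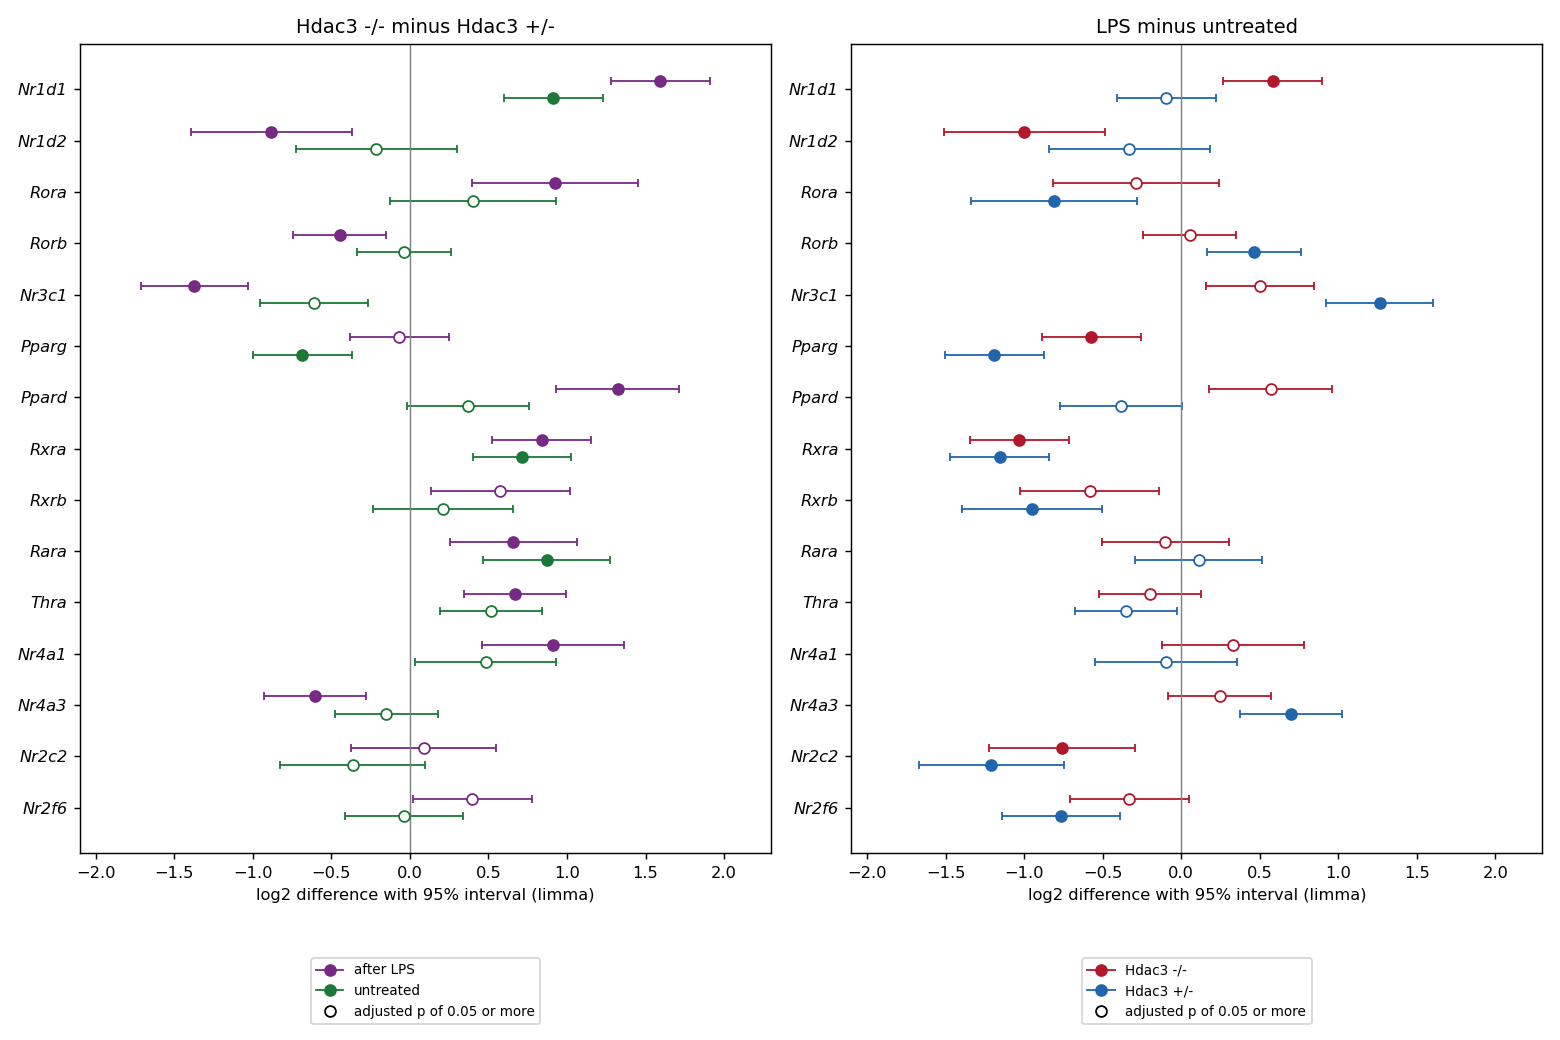
Log2 difference (horizontal axis) with its 95% limma interval for the 15 called members, as -/- minus +/- on the left (after LPS and untreated) and LPS minus untreated on the right (-/- and +/-). Filled points have an adjusted p under 0.05. Nr1d1 and Ppard lie farthest to the right on the left panel (1.59 and 1.32 after LPS) and Nr3c1 farthest to the left (-1.37).

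Whether the LPS response differed by genotype was asked directly by the difference of both responses, and 0 of 44 members passed in limma, against 1.08% of all genes. At an unadjusted p under 0.05 there were 4, Ppard, Nr3c1, Nr1d1 and Pparg, or 9.09% of the members against 11.4% of all genes. With array weights 1 member, Nr1d1, passed (adjusted p = 0.0496). An LPS call made in one genotype and missing in the other is thus not shown to differ between genotypes for any of these receptors.

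The other 6 members above the median had no call in the fit reported: Nr1h3, Rarg, the estrogen receptor Esr1, the estrogen-related receptor Esrra, Nr2c1 (TR2) and Nr6a1 (germ cell nuclear factor). Their differences lay between -0.57 and 0.52, and the smallest adjusted p was 0.0801. Esrra, known for control of mitochondrial genes, had 7.87, 7.73 and 7.71 in -/- LPS arrays against 7.88, 7.69 and 7.52 in +/- LPS arrays, which overlap. Esr1 had 5.20, 5.47 and 4.67 in -/- LPS arrays against 5.60, 5.63 and 5.50 in +/- LPS arrays, without overlap and without passing (-0.46 ± 0.242, adjusted p = 0.227). Its LPS difference in -/- cells (-0.57, adjusted p = 0.200) passed with array weights (0.0251). The 23 dim members without a call had differences between -0.41 and 0.48, with a smallest adjusted p of 0.0512 (Esrrb with LPS in +/- cells). Without +/- LPS 1, LPS differences of 5 dim members passed in +/- cells: Esr2 (0.0179), Esrrb (0.00479), Nr2e1 (0.0302), Nr2f2 (0.0215) and Nr4a2. Without the same array Esr2 (0.0375), Esrrb (0.0221) and Nr2e1 (0.0209) passed as lower in -/- than in +/- cells after LPS. Leaving out this array also raised the counts over all genes. They went from 4997 to 5983 with LPS in +/- cells and from 3127 to 3495 between genotypes after LPS. The 23 dim members include the hepatic receptors Hnf4a, Hnf4g, Nr1h4 (the bile acid receptor), Nr1i2, Nr1i3 and Nr0b2, and the steroidogenic factors Nr5a1 and Nr0b1. Array signals of all dim members lay between 2.37 and 5.77, so a level near the array's floor and absence of the transcript were not separated.

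**Figure D4:**
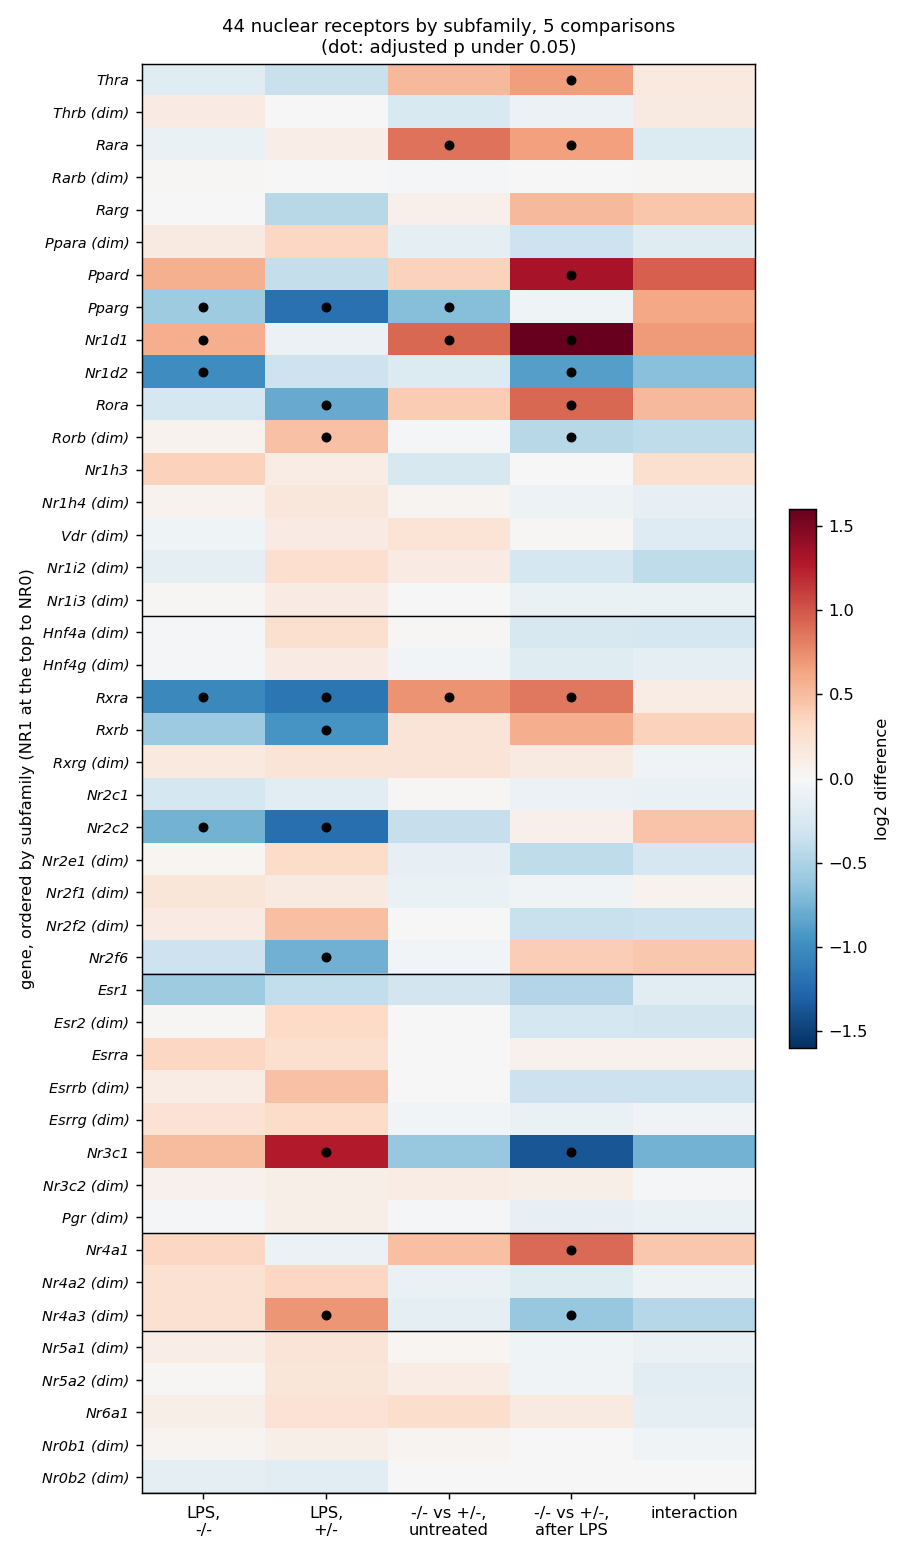
Log2 difference of all 44 measured members (rows) in the 5 comparisons (columns), with calls at an adjusted p under 0.05 marked. The 29 marks belong to 15 members, and the last column, the difference of both LPS responses, has none.

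Genes that work with the receptors were counted from 10 lists, with the range of each count over 22 alternatives (23 for LPS differences). Of 13 measured corepressor genes, Hdac3 included, 6 differed between the genotypes after LPS (4 to 8), 3 higher and 3 lower in -/- cells. That is 46.2%, against 15.7% of all genes (9.69% higher and 5.99% lower). Hdac3, the deleted gene, is among the 3 lower, and its call was set by the design. Of all genes at or above the median signal 26.9% were called (17.7% higher and 9.19% lower), and of dim genes 4.49%. The lists were not split by signal, so a list share near 26.9% is not shown to stand out. Of 16 coactivators 5 differed between the genotypes after LPS (3 to 5), or 31.2%. Kat2b, an acetyltransferase, was lower (-1.46 ± 0.208), as was Ncoa1 (-0.83 ± 0.171), while Pprc1, a relative of PGC-1, was higher (1.11 ± 0.240). Of 27 genes that make, carry or clear ligands 9 did (5 to 10), or 33.3%, 4 higher and 5 lower. Ptgs2, the cyclooxygenase whose products include receptor ligands, was lower in -/- cells after LPS (-2.27 ± 0.400).

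Known targets were counted in the same way after LPS, against the same 9.69% of all genes higher and 5.99% lower in -/- cells. For genes at or above the median signal these shares were 17.7% and 9.19%, or 26.9% in all. Of 16 PPAR targets 5 differed, all higher (31.2%), and the count was 1 to 5 over the alternatives. Among them was the lipid droplet coat gene Plin2 (1.50 ± 0.197). Of the 17 clock partners and targets of Rev-erb and Ror receptors 4 were higher and 1 lower (29.4% in all), with a count of 1 to 9 over the alternatives. Bhlhe41, a clock repressor, was higher by 3.39 ± 0.307. Of 15 targets of estrogen-related receptors 4 were higher (26.7%), and the count was 0 to 4. Of 16 LXR targets 2 were higher (12.5%, near the share of all genes), with a count of 1 to 4, among them Apoe (1.17 ± 0.256). With LPS 4 LXR targets fell in each genotype (25%), against 5.18% of all genes lower in -/- and 15.5% lower in +/- cells. Of genes at or above the median signal 9.82% were lower in -/- and 28.3% in +/- cells. The counts of LXR targets over the alternatives were 2 to 7 in -/- and 3 to 9 in +/- cells. Of 15 glucocorticoid receptor targets 1 was higher (6.67%), with a count of 0 to 4. Of 12 retinoic acid receptor and 9 vitamin D receptor targets 0 passed in limma (1 in each list at an unadjusted p under 0.05), and the counts over the alternatives were 0 in the first list and 0 to 1 in the second. Every list gene named here passed the same threshold. The lists overlap in some genes, and no list was tested against other genes.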

How the data were processed

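The authors deposited 1 log2 signal for each probe set and array, made with RMA and affy per the submitters' processing notes. Their versions, the chip description and the genome build are not stated there. Array medians lay between 5.19 and 5.37. The +/- LPS 2 and 3 arrays had the highest lower quartiles (3.99 and 3.95) and the lowest upper quartiles (7.19 and 7.15). Of genes at or above the median signal, 28.3% were called lower and 11.7% higher with LPS in +/- cells. After LPS, 17.7% of them were called higher and 9.19% lower in -/- than in +/- cells. The part of the narrower spread of these arrays in the receptor calls was not tested. Precision is limited by the number of arrays. Of 28193 probe sets, 21648 carry 1 gene symbol in the platform annotation, 1313 several and 5232 none, and the last 2 kinds were left out. With the brightest probe set per symbol, 19945 genes were tested.

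A linear model with 4 group means was fitted to all 12 arrays with limma 3.58.1 in R 4.3.3 (lmFit and eBayes without a trend). It gave LPS against untreated in each genotype, -/- against +/- within each treatment, and the difference of both LPS responses. P-values were adjusted by Benjamini-Hochberg over all genes for each comparison. The code was tested on simulated data. Tables and figures used Python 3.11.15, pandas 2.3.3, numpy 2.4.6 and matplotlib 3.10.9. Members called in any comparison are given with every array value, and the rest by range. The members and the 10 gene lists (171 entries, 156 measured) were chosen with earlier results of these data known, and so were the genes to be named. In each list up to 4 called genes with the largest change per comparison could be named. Promoter windows and gene order are from RefSeq GRCm38.p6.

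Alternatives were the variance moderation, array weights, renormalization by quantiles or cyclic loess, leaving out dim genes, averaging probe sets, fitting only the arrays compared, replicate blocks, and leaving out each array. Leaving out both male arrays was added after seeing the data. As a check of pairing, deviations from the group means were correlated across genes between untreated and LPS arrays of the same number. The correlation was 0.223 to 0.327 in +/- arrays, where replicate 1 was male in both groups, -0.12 to 0.195 in -/- arrays, and -0.44 to 0.514 between arrays of different number and group, a range that holds the +/- values. By a rule that every pair exceed 0.1 the numbers were taken as a possible pairing of the +/- arrays only.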

Additional observations from a re-analysis of the deposited data

Results flagged for a closer look

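One gene of the lists counted beside the receptors had an LPS response that differed between the genotypes by the test of the difference itself. It was 1 call among 156 measured list entries, against 1.08% of all genes called in this test, so the lists do not stand out. The gene, Tnfaip3, a deubiquitinase that restrains NF-kB and a known target of estrogen-related receptors, rose by 2.17 ± 0.201 in -/- cells and by 3.47 ± 0.201 in +/- cells. The difference of both responses was -1.29 ± 0.284 (limma, adjusted p = 0.0476). Its untreated level was already higher in -/- cells (8.91 ± 0.333 against 7.58 ± 0.245, SD, n = 3 each), and after LPS the means were 11.1 ± 0.208 in -/- and 11.05 ± 0.291 in +/- arrays. The difference kept its sign under 22 alternatives and no longer passed under 13 of them.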

How the results depend on the processing

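None of the 29 calls of members changed direction under any alternative. Of 648 pairs of a call and an alternative 571 kept the call and 77 lost it. In the other direction, 22 member differences that had not passed did so under at least 1 alternative (49 pairs, 17 members). There were 14 calls that held under every alternative run, among them both genotype differences of Nr1d1, the differences of Nr3c1, Ppard, Thra and Rxra after LPS, and the LPS falls of Rxra, Pparg, Nr2c2, Nr2f6 and Rxrb in +/- cells. The number of members called with LPS in -/- cells was 5, 9 with array weights, and 1 to 6 when 1 array was left out. With LPS in +/- cells it was 9, and 7 to 14 with 1 array left out. Between untreated genotypes it was 4, 2 to 5 with 1 array left out, and 1 without both male arrays, a setting chosen after seeing the data. Between genotypes after LPS it was 11, and 6 to 13 with 1 array left out. For the difference of both responses it was 0, 1 with array weights, and 0 whichever array was left out. With the replicate number as a block the counts were 5, 9, 4, 11 and 0. With a block of number within genotype they were 6, 9 and 0 for the comparisons that can be fitted, where Ppard was added with LPS in -/- cells, and the block changed no other call. The causes were not tested. Counts over all genes ranged from 1129 to 4424 with LPS in -/- cells (1769 in the fit reported), 3612 to 5983 with LPS in +/- cells (4997), 266 to 1186 between untreated genotypes (531), 1685 to 4440 after LPS (3127) and 97 to 592 for the difference of responses (216). Of 99 called values of list genes 60 held under every alternative and 0 reversed. The leave-out of dim genes gives no value for Rorb and Nr4a3. Dim members are limited by signal near the floor, and 3 arrays per group limit all values.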
